A study of Homo sapiens with 9 samples.

Results

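Treatment of HT-29 cells with 5 µM 5-Aza was compared with vehicle alone, using the 6 samples of those groups out of 9 samples in the series. The members were chosen by their labelled dose, 3 samples at 5 µM and 3 at 0 µM, and 20051 of 23284 gene symbols in the deposited tables passed the filter on low values and were compared. HT-29 is an established line of human colon adenocarcinoma cells. All 3 control cultures received the solvent DMSO, and the 3 treated cultures received 5-Aza (5-aza-deoxy-cytidine) in it at 5 µM, both for 5 days. The 6 samples are labelled as biological replicates of this single line, and p-values measure the spread between these cultures. The transcripts were read by RNA-Seq with paired ends, and the remaining 3 samples of the series, treated at 10 µM, enter only a check in which all 9 samples were fitted together.

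5-Aza is a cytidine analog that is built into DNA during replication and traps DNA methyltransferases there, so that the daughter strands of dividing cells lose methyl marks at CpG sites. Methylated CpG islands at promoters are known to keep germline genes, imprinted alleles and, in tumors, many other genes silent. The drug is also known to raise transcripts of endogenous retroelements, whose double-stranded RNA can start an interferon response, and to cause DNA damage and growth arrest. These points are background and were not measured here.

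The files gave FPKM, fragments per kilobase of exon relative to the mapped fragments of the library. Their scale is relative, so levels below are given as FPKM divided by 1000 (kFPKM). Estimated depth was 1.70e+07 to 3.19e+07 fragments in the control libraries and 2.99e+07 to 3.50e+07 at 5 µM. The number of symbols above 0 was 16373 to 16958 and 18761 to 18957, respectively. A gene was called at an adjusted p of at most 0.05 in limma and a log2 difference above 1 or below -1, where the difference is 5 µM minus control on the log2(FPKM + 1) scale. A gene was well covered when it was not listed at 0 throughout either group and averaged at least 30 estimated fragments, and genes listed at 0 in all 3 control samples were kept apart with no fold change, because a listed 0 can be a failed estimate. Well-covered genes had a median difference of -0.07, which dividing by library sums would move up by 0.29, so that some falls below lose their call under that scaling.

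The samples had the epithelial markers that the line is known for. None of 15 epithelial markers, among them the adhesion molecules EPCAM and CDH1 and the keratins KRT8, KRT18 and KRT19, was at 0 in all samples of either group. Their summed level was 92117 to 110510.0 kFPKM in control cells and 39112 to 44084 kFPKM at 5 µM. Of 29 leukocyte, endothelial and fibroblast markers, 7 were listed at 0 in all control samples and 3 in all treated samples, the latter including the B-cell gene MS4A1 and the fibroblast gene DCN. The summed level of that list was 77.5 to 103 kFPKM in control cells and 218 to 249.7 kFPKM at 5 µM, with 10 members called up. The part of other cells in the results was not tested. In bulk RNA, fewer cells with a transcript and less RNA per cell cannot be told apart.

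Among 20051 genes tested, 2818 were called up (14.1%) and 436 down (2.17%). The balance was similar but less uneven among 13070 well-covered genes, of which 1369 were called up (10.5%) and 382 down (2.92%). Rises made up 86.6% of all calls and 78.2% of those in well-covered genes, and 95.6% and 93.2% after scaling by library sums. The rises were also larger. A change above 4-fold was seen for 556 genes called up and 11 called down, and a change above 8-fold for 281 and 0, respectively. Of the 1369 genes, 1317 were above 0 in all 3 control samples, with a median difference of 1.73. In 20 and 32 others, 1 or 2 control samples were at 0, and the size of their difference depends on the pseudocount.

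The share called up depended on how strongly a gene was transcribed. When well-covered genes were ordered by mean log2 level and divided into 5 equal groups, the percentage called up from the lowest to the highest group was 35.4, 10.2, 2.91, 2.37 and 1.57. The percentage called down was 2.37, 2.75, 2.37, 1.76 and 5.36, so that the most abundant transcripts were the group with more falls than rises. The mean of both groups enters this order, and a gene that is low in control cells and high at 5 µM is therefore placed by its average.

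**Figure D1:**
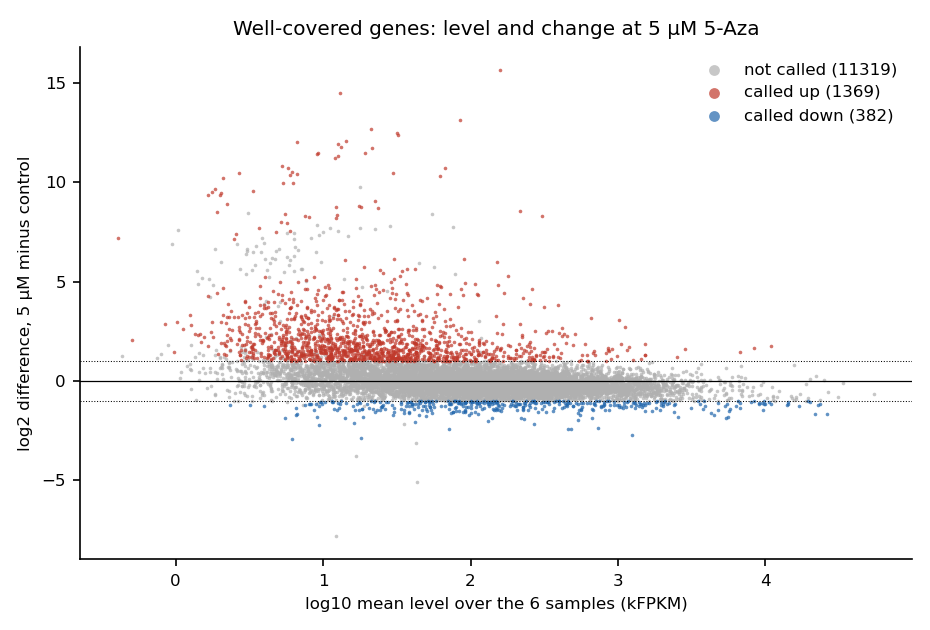
Log2 difference (5 µM minus control, vertical axis) against log10 of the mean level in kFPKM over the 6 samples (horizontal axis) for well-covered genes, each point 1 gene, red called up, blue called down and gray not called. Points called up (1369) reach further from 0 than points called down (382), and lie mostly at low levels.

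A further 2344 of the genes tested were listed at 0 in all 3 control samples, and 872 of them were called up (37.2%). Such a gene passed the filter only through a treated sample, so its difference could only be a rise. Genes at 0 in control samples that did not pass the filter are left out of this share and of the list shares below. Most of the 2344 rested on few fragments. Of 1301 such genes with under 3 estimated fragments on average at 5 µM, 165 were called, against 350 of 460 with 3 to 10 fragments, 189 of 202 with 10 to 30, 64 of 65 with 30 to 100, and 19 of 19 above 100. In the opposite direction, 190 genes were listed at 0 in all 3 treated samples and 1 was called down. Another 297 of the genes listed at 0 in all control samples had no fragment estimate. The treated libraries were also the deeper ones on average, and the part of depth in these counts was not tested. Shares of calls in the lists below are to be read beside 37.2% up for genes listed at 0 in control samples. For well-covered members they are to be read beside 10.5% up and 2.92% down. Where the members are weakly transcribed, the 35.4% up of the lowest-level group is the nearer comparison, also in lists where it is not repeated.

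**Figure D2:**
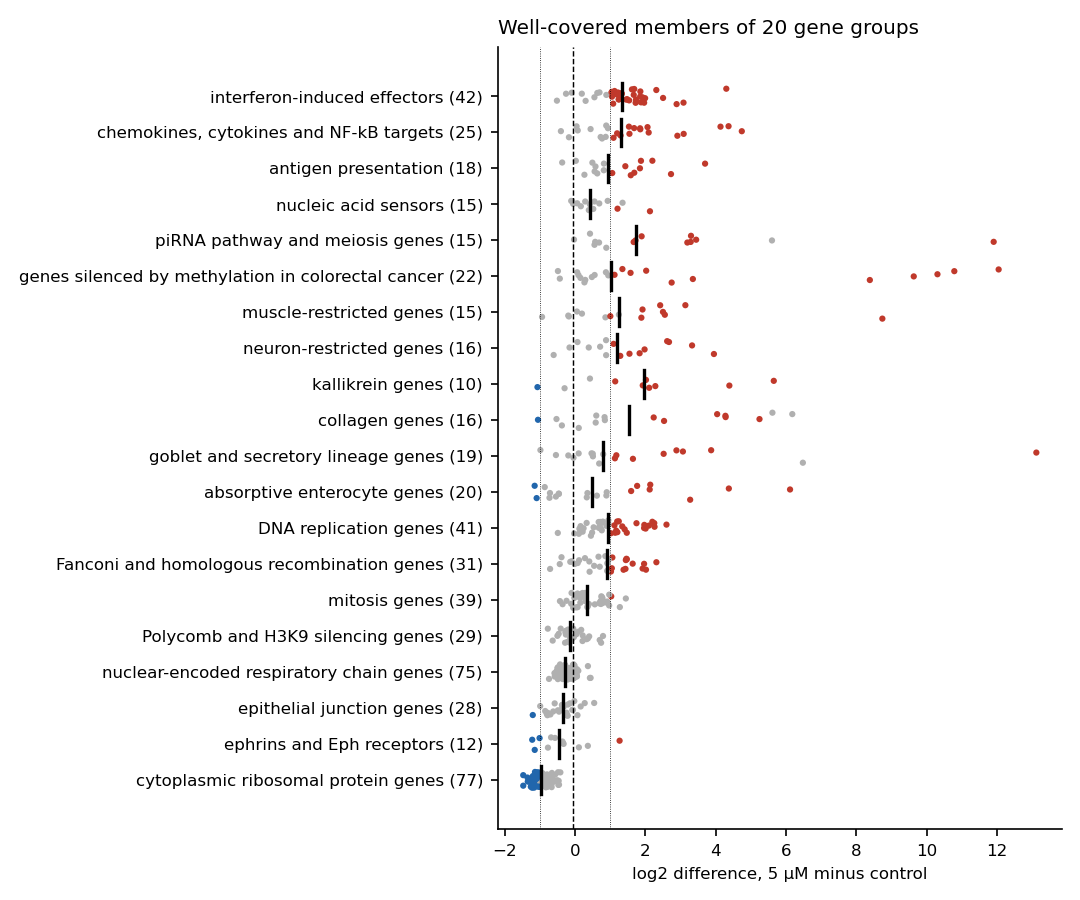
Log2 difference (5 µM minus control, horizontal axis) of the well-covered members of 20 gene groups, each point 1 gene, red called up, blue called down and gray not called, with the number of members in parentheses and the group median as a bar. The dashed line is the median over all well-covered genes (-0.07) and the dotted lines are at -1 and 1. Interferon-induced effectors have a median of 1.32, and cytoplasmic ribosomal protein genes, all below 0, have one of -0.98.

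Genes of the germline appeared at 5 µM where control cells listed them at 0. MAEL, a piRNA pathway protein of male germ cells, DAZL, an RNA-binding regulator of germ cell development, and TDRD9, a helicase of the same pathway, were listed at 0 in all control libraries. MAEL was at 156, 197 and 164 kFPKM in the treated samples, which corresponds to about 749.6, 899 and 843 fragments. DAZL was at 21.9, 33.5 and 32.7 kFPKM (190.2, 277 and 304 fragments). Both genes start in CpG-rich DNA, which is why their sequences are shown. The windows are the 300 bases before the annotated start in GRCh37, read 5′ to 3′ on the strand of the gene, with each CpG in capitals. MAEL lies at chr1:166958217-166958516, plus strand, with 26 CpG sites, and DAZL at chr3:16646931-16647230, minus strand, with 28.
MAEL: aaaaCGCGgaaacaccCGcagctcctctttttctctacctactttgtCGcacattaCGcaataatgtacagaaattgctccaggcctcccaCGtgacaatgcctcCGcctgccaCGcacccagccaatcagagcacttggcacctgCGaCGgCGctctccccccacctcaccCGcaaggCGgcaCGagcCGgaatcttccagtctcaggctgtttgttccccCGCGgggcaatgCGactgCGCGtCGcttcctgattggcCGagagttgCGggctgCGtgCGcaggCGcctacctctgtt
DAZL: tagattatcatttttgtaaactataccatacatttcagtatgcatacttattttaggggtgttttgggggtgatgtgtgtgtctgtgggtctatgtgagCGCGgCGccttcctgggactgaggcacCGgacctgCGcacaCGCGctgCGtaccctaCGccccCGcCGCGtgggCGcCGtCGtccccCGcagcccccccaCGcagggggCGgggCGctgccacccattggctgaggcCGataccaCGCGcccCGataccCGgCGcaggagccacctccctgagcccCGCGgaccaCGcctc

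The list of piRNA pathway and meiosis genes divided by how well its members were covered. Of 48 members tested, 15 were well covered and 8 (53.3%) of those were called up, none down, with a median difference of 1.72. Another 17 were listed at 0 in control cells, 14 of them called up (82.4%), and 16 rested on fewer fragments. Over all genes, 10.5% of those well covered and 37.2% of those listed at 0 in control cells were called up. TDRD9 was at 15.2, 14.5 and 18.5 kFPKM at 5 µM, TDRD1, a partner of PIWI proteins, at 7.38, 9.16 and 8.82, and the germ cell helicase DDX4 at 5.06, 2.09 and 2.57. All 3 genes were called up in limma (adjusted p at most 0.0004). SYCP3, an element of the chromosome axis in meiosis, was at 7.62, 5.05 and 8.33 kFPKM in control samples and 52.7, 80.3 and 70.5 at 5 µM, without overlap (log2 difference 3.29 ± 0.25 (SE), adjusted p = 0.00038). TDRD6, a further member of the Tudor family, rose with a log2 difference of 3.30 ± 0.26 (SE). TDRD12, another member, was at 0, 0 and 0.254 kFPKM in control samples and 17.4, 27.8 and 30 at 5 µM, and no fold is given because control samples were at or near 0. PIWIL4, which guides silencing by piRNA, was at 106, 118 and 116 kFPKM in control samples and 112, 115 and 105 at 5 µM and was not called.

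The cancer-testis genes of the X chromosome, antigens normally made in spermatogenic cells, formed the list with the most genes listed at 0 in control samples and called up at 5 µM. Of 21 MAGE genes of the germline type, 11 were listed at 0 in control cells. Of those, 10 were called up (90.9%, beside 37.2% of all genes listed at 0 in control cells). Among 5 well-covered members 3 (60%, beside 10.5%) were called up. The other 5 members, which were in neither class, had 1 called up and 1 called down. MAGEA4 was at 50.1, 62.9 and 53.9 kFPKM in the treated samples (about 238, 284 and 274 fragments), MAGEB2 at 13.1, 16 and 16.1 and MAGEC2 at 6.59, 6.37 and 5.82, each against 0 in 3 control samples. MAGE genes share long stretches of sequence, and how the counting divided reads between copies is not given in the sources used here. Levels of single members are therefore uncertain, and their calls are not independent of each other. Among 44 other cancer-testis genes of that chromosome that were tested, 25 of 31 listed at 0 in control cells were called up (80.6%, beside 37.2%). A further 10 were not tested, and 1 member was well covered. The list holds sets of near-identical copies, among them the CT45A, XAGE1 and GAGE genes. The same reads may count for several of them, so the 25 calls are not those of separate genes. TKTL1, a transketolase-like gene with no near-identical copy in the list, was at 14.8, 22.2 and 13 kFPKM (107, 153 and 101 fragments).

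Regulators of the early embryo were fewer. Of 18 pluripotency and early embryo genes tested, 3 (75%) of 4 well-covered members and 2 (40%) of 5 listed at 0 in control cells were called up. Over all genes of each class, 10.5% and 37.2% were called up, respectively. Without 5 µM replicate 1 the counts called up in the list were 1 and 4. LIN28B, which blocks maturation of let-7 microRNAs, was listed at 0 in control samples and rested on about 2.95, 1.97 and 1.97 fragments at 5 µM, and ZFP42, a zinc finger protein of pluripotent cells, likewise on about 0.332, 4.98 and 3.99. SALL4, a transcription factor of stem cells, was at 23.8, 28.1 and 34.8 kFPKM in control samples and 78.7, 60.2 and 65.7 at 5 µM (log2 difference 1.25 ± 0.18 (SE), adjusted p = 0.00242).

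The interferon pathway gave the highest share of calls among the pathway lists at the call thresholds given above. Of 42 well-covered interferon-induced effectors, 33 were called up and 0 down (78.6%, beside 10.5% of all well-covered genes), with a median difference of 1.32 beside -0.07. The treat test of limma, which asks for a change above 2-fold, called 6 of the 42 up, beside 518 of 13070 well-covered genes. By that test the share was larger in several lists below, among them antigen presentation and the chemokines, cytokines and targets of NF-kB. At the call thresholds, leaving out 1 library at a time gave 26 to 34 effectors called up. IFIT1, which binds viral RNA that lacks a host cap, was at 713, 612 and 366 kFPKM in control samples and 1625, 2109 and 1668 at 5 µM, with every treated sample above every control sample (log2 difference 1.72 ± 0.26 (SE), adjusted p = 0.00307). RSAD2 (viperin), an enzyme that makes a chain-terminating nucleotide, was at 54.8, 43.5 and 24.8 kFPKM in control samples and 276, 321 and 269 at 5 µM (log2 difference 2.89 ± 0.28 (SE), adjusted p = 0.000765). The treated samples again lay above the control samples throughout.

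Other effectors spread from small to large rises. IFIT2, a partner of IFIT1, rose from 82.7 ± 26.3 to 233 ± 34.6 kFPKM (SD, n = 3), MX2, a GTPase that blocks nuclear entry of viruses, with a log2 difference of 2.50 ± 0.25 (SE), and IFITM1, which hinders fusion of viral membranes, rose from 228 ± 97.2 to 1809 ± 305. HERC5, the ligase that attaches ISG15 to new proteins, had a log2 difference of 4.30 ± 0.30 (SE). All 4 genes passed the test in limma (adjusted p at most 0.00475). The remaining 9 well-covered effectors were not called.

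Upstream of the effectors, shares of calls were lower, a difference that was not tested. Of 15 well-covered sensors of foreign nucleic acid, 2 (13.3%) were called up. That count was 4 without control replicate 1 and 1 without control replicate 3, 5 µM replicate 2 or 5 µM replicate 3. DDX58 (RIG-I), a sensor of double-stranded RNA ends, had a log2 difference of 0.92 ± 0.20 and was not called. Of the interferons, receptors and signalling proteins, 6 (28.6%) of 21 well-covered members were called up and the median difference was 0.06. STAT2, a component of the transcription factor complex that type I interferon activates, was at 219, 224 and 201 kFPKM in control samples and 554, 493 and 477 at 5 µM without overlap (log2 difference 1.24 ± 0.08 (SE), adjusted p = 0.000267). The feedback inhibitors USP18 and SOCS3 rose with log2 differences of 1.56 ± 0.27 and 2.65 ± 0.37 (SE). IFNB1, the gene of interferon beta, was listed at 0 in all control samples and at 2.53, 3.19 and 3.78 kFPKM at 5 µM, about 5, 5.99 and 7.99 fragments, and was called up (adjusted p = 0.000343). The interferon gene thus rested on few fragments.

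Interferon is known to act through the interferon-stimulated response element, a short DNA motif that complexes with STAT2 bind. It was searched as GAAA and GAAA with any 2 bases between them, on both strands, in the 300 bases before each start, where it was found for 25 of 44 effectors (56.8%) and for 8 of 21 antigen presentation genes (38.1%), beside 3.34% of 18390 genes tested that had a window. Matches can overlap each other, and a match is a description of letters, not of binding. The windows of IFIT1, IFIT2 and RSAD2 are shown because these genes are described above, with the matches in capitals. IFIT1 (chr10:91152080-91152379, plus strand) held 2 matches, starting 116 and 103 bases before the start. IFIT2 (chr10:91061503-91061802, plus strand) held 2 matches, at 108 and 95 bases, and RSAD2 (chr2:7017608-7017907, plus strand) 1 match at 145 bases.
IFIT1: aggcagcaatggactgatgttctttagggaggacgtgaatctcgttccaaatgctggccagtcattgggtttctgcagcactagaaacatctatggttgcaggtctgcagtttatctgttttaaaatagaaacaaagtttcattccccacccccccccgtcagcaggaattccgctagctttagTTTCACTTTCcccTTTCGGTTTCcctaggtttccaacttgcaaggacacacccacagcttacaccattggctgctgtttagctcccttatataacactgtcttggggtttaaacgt
IFIT2: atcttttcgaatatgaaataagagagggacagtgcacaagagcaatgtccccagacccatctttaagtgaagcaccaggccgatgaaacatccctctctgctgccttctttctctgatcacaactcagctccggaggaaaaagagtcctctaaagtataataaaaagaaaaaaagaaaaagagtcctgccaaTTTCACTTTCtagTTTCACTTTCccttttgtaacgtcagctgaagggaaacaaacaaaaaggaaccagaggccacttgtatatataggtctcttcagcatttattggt
RSAD2: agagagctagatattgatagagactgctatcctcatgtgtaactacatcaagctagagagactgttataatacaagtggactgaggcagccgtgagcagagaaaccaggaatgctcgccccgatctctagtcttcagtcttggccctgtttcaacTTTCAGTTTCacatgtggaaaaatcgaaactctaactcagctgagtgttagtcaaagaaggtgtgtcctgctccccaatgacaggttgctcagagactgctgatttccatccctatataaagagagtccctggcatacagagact

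**Figure D3:**
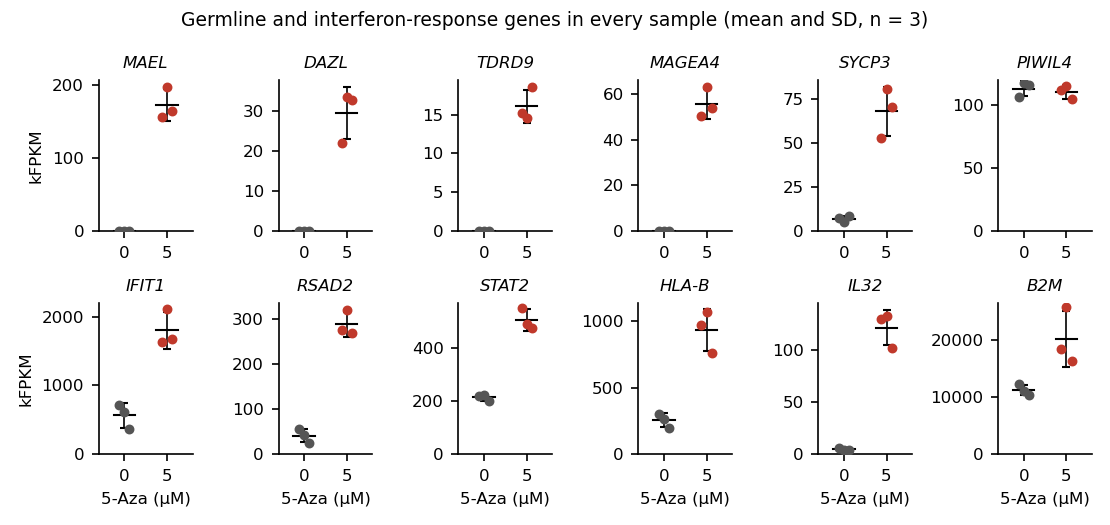
Levels in kFPKM (vertical axes from 0) of 6 germline genes (top) and 6 interferon or immune genes (bottom) at 0 and 5 µM 5-Aza; each point is 1 sample, and the bars give the mean and SD (n = 3). MAEL, DAZL and TDRD9 sit at 0 in all control samples and above 0 in all treated samples, and the treated points of IFIT1 and RSAD2 lie above all control points. PIWIL4 overlaps between the groups.

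Antigen presentation, which interferons are known to raise, followed with smaller changes. Of 18 well-covered members, 9 (50%) were called up and 0 down, with a median of 0.94. The treat test called 5 of them up. HLA-B, a class I molecule that shows peptides to T cells, was at 304, 268 and 199 kFPKM in control samples and 970.3, 1073 and 763 at 5 µM (log2 difference 1.87 ± 0.19 (SE), adjusted p = 0.000867). B2M, the light chain of all class I molecules, was at 12202, 11138 and 10382 kFPKM in control samples and 18423, 25694 and 16317 at 5 µM (log2 difference 0.82 ± 0.22, SE), with treated samples above control samples, but was not called because its difference was below 1. NLRC5, the transactivator of class I genes, rose with a log2 difference of 2.73 ± 0.23 (SE). HLA genes are close relatives and reads can be split between them, so single members are uncertain.

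Inflammatory signals were also higher. Of 25 well-covered chemokines, cytokines and targets of NF-kB, 15 (60%) were called up and 0 down, with a median of 1.29. The treat test called 6 of them up. IL8, the main attractant of neutrophils, was at 7.67, 10.8 and 9.57 kFPKM in control samples and 31.2, 35.1 and 34.2 at 5 µM (log2 difference 1.85 ± 0.17 (SE), adjusted p = 0.000642), and CCL20, which draws dendritic cells and T cells to the gut, was at 6.09, 8.07 and 6.25 kFPKM in control samples and 135, 132 and 150.2 at 5 µM (4.36 ± 0.15 (SE), adjusted p = 8.64e-05). IL32, a cytokine of epithelial cells, was at 6.25, 3.78 and 3.84 kFPKM in control samples and 129, 132 and 102 at 5 µM (4.74 ± 0.24 (SE), adjusted p = 0.000148). None of these groups of samples overlapped. The interleukin-1 genes IL1A and IL1B rose with log2 differences of 4.13 ± 0.60 and 3.09 ± 0.52 (SE).

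The intestinal program changed in both directions. Of 14 well-covered epithelial markers of the line, 4 (28.6%) were called down and 2 (14.3%) up, the falls being keratins of simple epithelium and the tetraspanin TSPAN8. KRT8, the type II keratin of gland cells, was at 40930.4, 42003 and 35211 kFPKM in control samples and 11914, 13095 and 12671 at 5 µM (log2 difference -1.65 ± 0.19 (SE), adjusted p = 0.00113), and KRT19 at 9139.7, 9266 and 7409.5 kFPKM in control samples and 2476, 2469 and 2491 at 5 µM (-1.79 ± 0.12 (SE), adjusted p = 0.000271). In both the treated samples were below all control samples. HNF4A, a nuclear receptor that maintains the intestinal and hepatic epithelium, was at 306, 279.9 and 284 kFPKM in control samples and 131, 116 and 145 at 5 µM (-1.15 ± 0.10 (SE), adjusted p = 0.000477). Under scaling by library sums HNF4A and TSPAN8 lost their calls and KRT8 and KRT19 did not.

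Genes of mature enterocytes moved in both directions as well. Of 20 well-covered absorptive enterocyte genes, 7 (35%) were called up and 2 (10%) down, beside 10.5% and 2.92% over all well-covered genes and 35.4% and 2.37% in the lowest-level group. CDX1, a homeobox factor of the intestine, was at 3.42, 4.21 and 4.35 kFPKM in control samples and 15.2, 18.4 and 19 at 5 µM (log2 difference 2.14 ± 0.21 (SE), adjusted p = 0.00073). ANPEP, the aminopeptidase of the brush border, was at 1.77, 0.294 and 1.14 kFPKM in control samples and 58.2, 46.4 and 73.7 at 5 µM (6.11 ± 0.67 (SE), adjusted p = 0.00102). GUCA2A and GUCA2B, the genes of guanylin and uroguanylin, which regulate salt and water secretion, were at 6.46 ± 3.78 and 11.2 ± 2.49 kFPKM (SD, n = 3) in control samples. They reached 113 ± 18.7 and 106 ± 10.8 kFPKM at 5 µM. CDX2, a homeobox factor related to CDX1, was not called (log2 difference -0.73 ± 0.12). CDX1 missed the threshold when all 9 samples of the series shared 1 fit (adjusted p = 0.0747).

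Secretory lineage genes were called up in 8 (42.1%) of 19 well-covered members and in 6 of 7 members listed at 0 in control cells, with none down. The first count was 5 without 5 µM replicate 3 and 4 in the treat test. Over all genes, 10.5% of those well covered and 37.2% of those listed at 0 in control cells were called up. TFF1, a trefoil peptide secreted with mucus, was at 52.5 ± 12.4 kFPKM in control samples and 380.0 ± 12.9 at 5 µM (SD, n = 3), with a log2 difference of 2.88 ± 0.17 (SE), and REG4, a lectin of neuroendocrine and goblet cells, was at 10.8, 5.09 and 8.3 kFPKM in control samples and 95.5, 125 and 119 at 5 µM. All treated samples of both genes lay above all control samples. MUC1, a membrane mucin, rose with a log2 difference of 3.07 ± 0.25 (SE). The goblet cell lectin ZG16, the granule protein CHGB and the Paneth cell defensin DEFA6 were at 8.55, 10.7 and 14.1, at 1.95, 2.19 and 3.4 and at 34.9, 26.2 and 15.1 kFPKM at 5 µM, against 0 in control samples. The window before the start of GUCA2A (chr1:42630417-42630716, minus strand) is shown as that of a lineage gene with fewer CpG sites than MAEL or DAZL, 8 in all, again in capitals.
GUCA2A: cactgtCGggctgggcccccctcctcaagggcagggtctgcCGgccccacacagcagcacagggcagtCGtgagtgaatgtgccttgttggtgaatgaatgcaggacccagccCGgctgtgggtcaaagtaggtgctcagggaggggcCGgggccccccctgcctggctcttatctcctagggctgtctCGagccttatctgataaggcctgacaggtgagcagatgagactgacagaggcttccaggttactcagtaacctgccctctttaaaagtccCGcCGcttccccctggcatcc

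Genes of bile acid metabolism included the deepest fall among well-covered genes. NR1H4, the bile acid receptor FXR, was at 7.89, 12.3 and 12.6 kFPKM in control samples and 2.15, 1.42 and 0.902 at 5 µM (log2 difference -2.93 ± 0.42 (SE), adjusted p = 0.00251), and its target FGF19, the hormone that signals bile acid load to the liver, was at 835, 865 and 746 kFPKM in control samples and 133, 163 and 156 at 5 µM (-2.44 ± 0.10 (SE), adjusted p = 0.000108). Treated samples lay below control samples in both, but NR1H4 was not called when all 9 samples of the series shared 1 fit (adjusted p = 0.388). Other genes known as FXR targets went the opposite way. NR0B2 (SHP), a repressor in bile acid feedback, had a log2 difference of 1.47 ± 0.26 (SE), and OSTBETA, a subunit of the basolateral bile acid exporter, of 2.50 ± 0.08. PPARG, a receptor of fatty acids, fell by 1.11 on the log2 scale, a call lost under scaling by library sums. In the whole list of nuclear receptors and targets, 5 (15.2%) of 33 well-covered members were called up and 3 (9.09%) down, the latter 5 without 5 µM replicate 1.

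Detoxification genes also moved in both directions. Of 30 well-covered members, 6 (20%) were called up and 4 (13.3%) down. AKR1B10, an NRF2-responsive reductase, was at 712, 831 and 775 kFPKM in control samples and 132, 151 and 159.9 at 5 µM (log2 difference -2.39 ± 0.10 (SE), adjusted p = 0.000108). The glutathione peroxidase GPX2 fell with a difference of -1.10 ± 0.11 (SE), AKR1C3, a steroid reductase, with -1.29 ± 0.12, and ALDH3A1, an aldehyde dehydrogenase, with -1.52 ± 0.09. CYP1A1, the main target of the aryl hydrocarbon receptor, was at 4.46, 2.53 and 2.83 kFPKM in control samples and 18.5, 19.1 and 23.1 at 5 µM (2.67 ± 0.28 (SE), adjusted p = 0.000887), and ALDH1A3, which makes retinoic acid, rose with 1.65 ± 0.14. The AKR genes have close relatives, so reads may be shared among them. Of these falls, that of GPX2 lost its call under scaling by library sums.

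**Figure D4:**
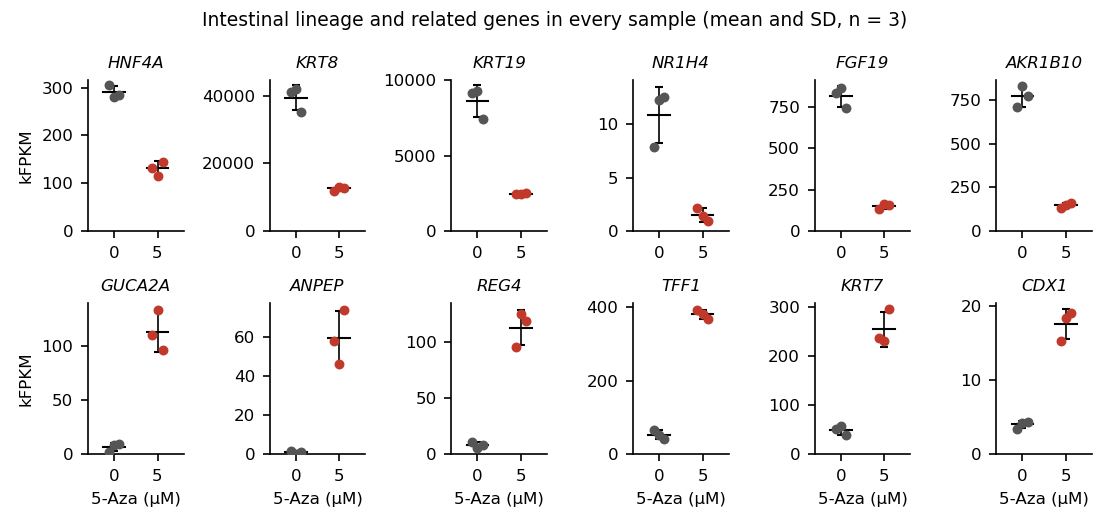
Levels in kFPKM (vertical axes from 0) of 12 genes of the intestinal epithelium at 0 and 5 µM 5-Aza; each point is 1 sample, and the bars give the mean and SD (n = 3). NR1H4, FGF19, AKR1B10, HNF4A, KRT8 and KRT19 lie lower in all treated samples, and GUCA2A, ANPEP, REG4, TFF1, KRT7 and CDX1 higher.

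Keratins, the intermediate filaments of epithelia, moved in both directions. Of 16 well-covered keratin genes, 7 (43.8%) were called up and 3 (18.8%) down, beside 10.5% and 2.92% over all well-covered genes. Among 24 keratin genes listed at 0 in control cells 5 were called up (20.8%, beside 37.2%). KRT7, a keratin of ductal epithelium that colon cells usually lack, was at 51.2, 56.3 and 38 kFPKM in control samples and 237, 231 and 295 at 5 µM (log2 difference 2.40 ± 0.17 (SE), adjusted p = 0.000328). KRT23 rose with a difference of 1.92 ± 0.12 (SE). KRT81 and KRT86, hair keratins that are close copies of each other, were called up too, and how reads were split between them is uncertain. Of 28 epithelial junction genes, 0 were called up and 1 (3.57%) down (2 without 5 µM replicate 1, 5 µM replicate 2 or control replicate 1), with a median of -0.34 beside -0.07, and CDH1 and EPCAM had differences of -0.06 ± 0.09 and -0.23 ± 0.13 without a call.

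Secreted proteases and matrix genes rose in many cases. Of 10 well-covered kallikreins, serine proteases encoded side by side on chromosome 19, 7 (70%) were called up and 1 (10%) down, with a median of 1.97. KLK5 was at 1.99, 1.76 and 1.25 kFPKM in control samples and 74.7, 93.1 and 80 at 5 µM (log2 difference 5.65 ± 0.23 (SE), adjusted p = 0.000108). KLK7 and KLK13 rose with differences of 2.28 ± 0.17 and 4.39 ± 0.62 (SE), and KLK6 was the member that fell (a call lost under scaling by library sums), at 10961, 10835 and 10757 kFPKM in control samples and 5031, 5091 and 5352 at 5 µM (-1.07 ± 0.11 (SE), adjusted p = 0.000765). Mesenchymal and matrix genes were called up in 12 (50%) of 24 well-covered members and down in 2 (8.33%), the latter 1 without 5 µM replicate 1, 5 µM replicate 2 or control replicate 2. VIM, the intermediate filament of mesenchymal cells, is not in this list but in that of genes silenced by methylation in colorectal tumors, given below. It was at 0, 0 and 0.186 kFPKM in control samples and 7.58, 9.19 and 14.8 at 5 µM (limma, adjusted p = 0.00888). No fold is given because control samples were at or near 0. Within the mesenchymal and matrix list single genes moved in both directions. MMP1, an interstitial collagenase, had a difference of 2.89 ± 0.33. TGM2, a protein crosslinking enzyme, fell with -1.83 ± 0.12.

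Collagens had 6 (37.5%) of 16 well-covered members called up and 1 (6.25%) down, the latter 0 without 5 µM replicate 1. Over all well-covered genes the shares were 10.5% and 2.92%, and 35.4% were called up in the lowest-level group. Among 9 collagens listed at 0 in control cells 1 was called up (11.1%, beside 37.2%). COL6A1, a chain of microfibrillar collagen, rose with a log2 difference of 4.28 ± 0.53 (SE), and COL6A3, another chain, from 0.233 ± 0.145 to 7.82 ± 0.161 kFPKM (SD, n = 3). Fibroblast markers are present in the list of other cell types described above, in which 10 of 29 members were called up. The part of such cells in these rises was not tested.

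Signalling genes of the gut epithelium are given with the share of each list called, to be read beside 10.5% up and 2.92% down over all well-covered genes. Of 18 well-covered Wnt targets and stem cell genes, 2 (11.1%) were called up and 3 (16.7%) down. The Wnt antagonists NKD1 and NOTUM had log2 differences of 2.51 ± 0.29 and 2.05 ± 0.27 (SE). CD44, a receptor of hyaluronan on stem-like cells, fell with -1.25 ± 0.10. LGR5 and ASCL2, which mark crypt stem cells, were not called, with differences of 0.33 ± 0.21 and 0.81 ± 0.14. In the BMP and TGF-beta pathway 2 (7.41%) of 27 well-covered members were called up and 3 (11.1%) down. The ligand BMP4 was at 1283, 1349.6 and 1505 kFPKM in control samples and 606, 609 and 580.1 at 5 µM (-1.20 ± 0.08 (SE), adjusted p = 0.000263), and its target ID1, an inhibitor of differentiation factors, fell with -1.32 ± 0.08. Of 34 well-covered EGF receptor ligands, MAPK feedback and AP-1 genes 4 (11.8%) were called up and 0 down, among them the ligand EGF with 2.32 ± 0.29. Eph receptors and ephrins had 3 (25%) of 12 well-covered members called down, EPHB4 with -1.22 ± 0.08 and EFNB1 with -1.15 ± 0.09, and 1 (8.33%) up. Scaling by library sums removed the calls of CD44, BMP4, EPHB4 and EFNB1.

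Guidance cues of the netrin, slit and semaphorin families were called up in 7 (21.2%) of 33 well-covered members and down in 3 (9.09%), beside 10.5% and 2.92%. NRP2, a coreceptor of semaphorins, was at 33.8, 31.1 and 29.9 kFPKM in control samples and 2.96, 4.28 and 6.62 at 5 µM (log2 difference -2.85 ± 0.31 (SE), adjusted p = 0.000982), the second deepest fall among well-covered genes. SEMA3A, a repulsive ligand, rose with 2.13 ± 0.24 (SE), and the related SEMA3B fell with -1.10 ± 0.09, a call lost under scaling by library sums.

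Many genes that start and carry out DNA replication rose, while most genes of mitosis did not pass the test. Of 41 well-covered replication genes, 19 were called up and 0 down (46.3%, beside 10.5%), with a median of 0.94 and 16 to 19 calls when 1 library was left out and 5 in the treat test. ORC1, the largest subunit of the origin recognition complex, was at 1.81, 6.33 and 4.61 kFPKM in control samples and 18.7, 17.1 and 18.2 at 5 µM (log2 difference 2.26 ± 0.47 (SE), adjusted p = 0.0109). CDC45, part of the replicative helicase, was at 14.7, 18.2 and 9.41 kFPKM in control samples and 75.8, 82.1 and 89.1 at 5 µM (2.60 ± 0.25 (SE), adjusted p = 0.000677). CCNE2, the cyclin of entry into S phase, rose with 2.25 ± 0.29 (SE), ORC6, a further origin subunit, with 1.97 ± 0.14, and the transcription factor E2F1 with 1.74 ± 0.17. The treated samples were above all control samples for these genes.

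Of 31 well-covered Fanconi and recombination genes, 13 (41.9%) were called up and 0 down, with 4 up in the treat test. FANCA, a core subunit of the crosslink repair complex, was at 23.1, 23.5 and 17.9 kFPKM in control samples and 109, 91.3 and 119 at 5 µM (log2 difference 2.31 ± 0.16 (SE), adjusted p = 0.000276), and the exonuclease EXO1 and the checkpoint mediator CLSPN rose with 1.96 ± 0.26 and 1.92 ± 0.20 (SE). Of 39 mitosis genes 1 (2.56%) was called up and the median was 0.34. That count was 8 without control replicate 1, 2 without 5 µM replicate 1, 0 without control replicate 3 or 5 µM replicate 3, and 15 under scaling by library sums. The mitotic cyclin CCNB1 had a difference of 0.08 ± 0.18 and CCNA2 of 0.25 ± 0.19, neither called. The difference between the replication and mitosis lists was not tested.

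The E2F element, searched as TTTNGCGC on both strands, was found in the windows of 11 of 42 replication genes (26.2%) and of 2 of 39 mitosis genes, beside 2.27% of all windows. Those of ORC6 (chr16:46723271-46723570, plus strand) and E2F1 (chr20:32274192-32274491, minus strand) are shown as examples, with the match in capitals, 123 and 20 bases before the start.
ORC6: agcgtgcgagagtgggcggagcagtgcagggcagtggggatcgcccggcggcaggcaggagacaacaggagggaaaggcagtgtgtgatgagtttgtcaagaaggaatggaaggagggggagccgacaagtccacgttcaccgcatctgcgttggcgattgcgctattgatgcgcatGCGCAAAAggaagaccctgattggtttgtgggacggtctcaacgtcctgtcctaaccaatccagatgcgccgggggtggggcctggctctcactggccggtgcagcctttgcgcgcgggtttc
E2F1: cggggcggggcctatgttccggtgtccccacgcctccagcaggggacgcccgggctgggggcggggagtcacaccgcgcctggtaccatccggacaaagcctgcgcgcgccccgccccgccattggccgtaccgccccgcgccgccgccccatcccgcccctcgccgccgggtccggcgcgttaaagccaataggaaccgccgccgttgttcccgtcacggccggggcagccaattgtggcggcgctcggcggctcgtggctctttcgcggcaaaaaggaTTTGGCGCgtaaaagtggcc

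Genes of growth arrest, cell death and stress were examined as 3 lists. Of 30 well-covered p53 targets and CDK inhibitors, 5 were called up (16.7%, beside 10.5%) and 1 (3.33%) down. Without 5 µM replicate 3 these counts were 3 and 0, and the count down was also 0 without control replicate 1 or control replicate 2. CDKN1A (p21), an inhibitor of cyclin-dependent kinases, was at 169, 166 and 155 kFPKM in control samples and 448, 501 and 549.8 at 5 µM (log2 difference 1.61 ± 0.09 (SE), adjusted p = 0.00019), and CDKN2D (p19), an inhibitor of CDK4 and CDK6, rose with 1.28 ± 0.16 (SE). Among 29 apoptosis regulators 2 (6.9%) were called up, the BH3-only gene BMF with 1.80 ± 0.10 and the death ligand TNFSF10 (TRAIL) with 1.38 ± 0.11. Of 30 ATF4 and endoplasmic reticulum stress genes, 2 (6.67%) were called up and 2 (6.67%) down (1 without control replicate 1), and MTHFD2, a mitochondrial folate enzyme, was at 3253, 3187 and 2554 kFPKM in control samples and 1144, 1520.2 and 1322 at 5 µM (-1.18 ± 0.15 (SE), adjusted p = 0.0015), a fall not called under scaling by library sums.

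Ribosomal protein genes lay lower at 5 µM on the deposited scale. Of 77 well-covered members 33 were called down (42.9%, beside 2.92%) and 0 up, and all 77 had a negative difference, from -1.48 to -0.42 with a median of -0.98. RPL3, a large subunit protein, was at 7924, 7135 and 6144 kFPKM in control samples and 2414, 2545 and 2614 at 5 µM (log2 difference -1.48 ± 0.12 (SE), adjusted p = 0.000453), and RPSA, a small subunit protein, fell with -1.36 ± 0.13 (SE). The number called depended on scaling, with 26 under median-of-ratios scaling and 4 under scaling by library sums, where the median was -0.69. Leaving out 1 library gave 26 to 44. These genes have many processed pseudogenes, so reads can be shared. Nuclear-encoded genes of the respiratory chain had a median of -0.28 and 0 of 75 members called in either direction.

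Metabolic pathways had shares of calls near that over all well-covered genes, 10.5%. Of 29 glycolysis and hypoxia genes 3 (10.3%) were called up, ENO2, the neuronal enolase, with a log2 difference of 1.54 ± 0.13 (SE), ALDOC, an aldolase, with 1.41 ± 0.14, and PFKFB4, a regulator of phosphofructokinase, with 1.14 ± 0.15. Of 34 cholesterol and fatty acid synthesis genes 4 (11.8%) were called up, among them LSS, which closes the sterol rings, with 1.20 ± 0.09.

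The enzymes of the methylation machinery were called up in 2 (12.5%) of 16 well-covered members and down in 0, beside 10.5% and 2.92%, and the count up was 1 without control replicate 2 or any 1 of the treated samples. UHRF1, which recruits DNMT1 to hemimethylated DNA, was at 18.8, 17.7 and 17.1 kFPKM in control samples and 35.4, 38.2 and 42.5 at 5 µM (log2 difference 1.11 ± 0.12 (SE), adjusted p = 0.000995). DNMT1, the maintenance methyltransferase that the drug is known to trap, had a difference of 0.17 ± 0.08 and DNMT3A, a de novo enzyme, of -0.02 ± 0.09, and neither was called. None of 29 Polycomb and H3K9 silencing genes was called, and their differences lay between -0.78 and 0.79.

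Imprinted genes, of which a single parental allele is transcribed, included the largest rise among genes above 0 in all 6 samples. H19, the noncoding RNA next to IGF2 on chromosome 11, was at 0.728, 1.45 and 1.53 kFPKM in control samples and 428, 431 and 438 at 5 µM (log2 difference 8.52 ± 0.30 (SE), adjusted p = 9.14e-05), on few control fragments. IGF2, the growth factor gene beside it, was at 326, 382 and 400.2 kFPKM in control samples and 986, 936 and 1021 at 5 µM (1.41 ± 0.09 (SE), adjusted p = 0.000263). CDKN1C, a CDK inhibitor in the adjoining domain, rose with 2.11 ± 0.13 (SE), and KCNQ1, a potassium channel gene of that domain, fell with -1.09 ± 0.10, a call lost under scaling by library sums. Over the list 6 (33.3%) of 18 well-covered members were called up and 1 (5.56%) down, beside 10.5% and 2.92%. Another 4 of 9 listed at 0 in control cells were called up (44.4%, beside 37.2%), among them DLK1 and RTL1 of 1 cluster on chromosome 14 and PEG3 on chromosome 19. They rested on about 48.2, 12.9 and 48.2 fragments at 5 µM for DLK1, 2.59, 1.3 and 6.49 for RTL1 and 3.13, 2.08 and 14.6 for PEG3.

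Genes known to be silenced by promoter methylation in colorectal tumors were called up in 11 (50%) of 22 well-covered members and none down, with a median of 1.03. The count called up was 6 without 5 µM replicate 1 or replicate 3 and 4 in the treat test. The share over all well-covered genes was 10.5%, and that in the lowest-level group 35.4%. Another 7 of 16 listed at 0 in control cells were called up (43.8%, beside 37.2% of all such genes). A further 16 rested on fewer fragments, 1 of them called. TIMP3, an inhibitor of metalloproteinases, was at 0.289, 0 and 0 kFPKM in control samples and 26.1, 23.8 and 35.5 at 5 µM (adjusted p = 0.00729). BCAT1, a transaminase of branched amino acids, was at 0.0842, 0 and 0 kFPKM in control samples and 2.35, 3.55 and 5.12 at 5 µM (adjusted p = 0.00858). No fold is given for either, because control samples were at or near 0. RASSF2, a Ras effector, was listed at 0 in control samples and called up on about 4.06, 10.2 and 9.89 fragments at 5 µM. SFRP2, a secreted Wnt antagonist also at 0 in control samples, was at 0.357, 0 and 0.167 kFPKM at 5 µM and was not called. The window of TIMP3 (chr22:33197391-33197690, plus strand) is shown as that of an island promoter, with 32 CpG sites in capitals.
TIMP3: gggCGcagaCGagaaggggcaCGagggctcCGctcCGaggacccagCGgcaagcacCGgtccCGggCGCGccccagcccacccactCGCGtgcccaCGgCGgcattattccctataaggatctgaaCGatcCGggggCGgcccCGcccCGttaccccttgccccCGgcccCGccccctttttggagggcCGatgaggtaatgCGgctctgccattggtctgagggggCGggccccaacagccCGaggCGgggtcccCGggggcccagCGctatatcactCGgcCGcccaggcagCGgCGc

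Genes known mainly from nervous tissue or muscle were also examined. Of 16 well-covered neuronal genes 9 were called up (56.2%), and of 15 muscle genes 8 (53.3%), with none down in either, beside 35.4% in the lowest-level group. The muscle count was 5 without 5 µM replicate 1. Among members listed at 0 in control cells, 3 of 14 neuronal genes (21.4%) and 2 of 7 muscle genes (28.6%) were called up. Over all genes listed at 0 in control cells the share was 37.2%. SYN1, a protein of synaptic vesicles, was at 2.32, 2.22 and 2.26 kFPKM in control samples and 20.1, 23.8 and 24.5 at 5 µM (log2 difference 3.33 ± 0.20 (SE), adjusted p = 0.000202), and STMN3, a neuronal regulator of microtubules, had 2.67 ± 0.18 (SE). MB (myoglobin) was at 7.05, 4.22 and 3.72 kFPKM in control samples and 29.3, 20.4 and 33.3 at 5 µM (2.50 ± 0.32 (SE), adjusted p = 0.00168), and LDB3, a protein of the Z line, had 3.14 ± 0.45. Of 7 well-covered leukocyte, endothelial and fibroblast markers 5 (71.4%) were called up, among them CD79A of B cells with 3.32 ± 0.32 and the integrin ITGAM of myeloid cells with 3.94 ± 0.52. Another 2 of 7 markers of that list at 0 in control cells were called up (28.6%, beside 37.2%). The pan-leukocyte marker PTPRC was at 0, 0 and 0.154 kFPKM in control samples and 0.137, 0.326 and 0.983 at 5 µM and was not called. The part of other cells in these rises was not tested.

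Large gene families differed in their share of calls. Zinc finger genes named ZNF were near or below the background, with 20 of 404 well-covered members called up (4.95%, beside 10.5%) and 7 (1.73%) down, 4 without control replicate 2, but 23 of 37 listed at 0 in control cells were called up (62.2%, beside 37.2%). Of those 37 genes 25 lie on chromosome 19, of which 16 were called (64%), beside 7 of the 12 others (58.3%). ZNF134, which has the most fragments of this group, was at 12, 16.6 and 20.7 kFPKM at 5 µM (about 178, 233 and 327 fragments). Of 97 tested olfactory receptor genes listed at 0 in control cells 13 were called up (13.4%, beside 37.2%), and 227 others of the family did not pass the filter. That count was 21 without 5 µM replicate 1 and 20 without 5 µM replicate 2.

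HOX genes were called up in 4 (12.9%) of 31 well-covered members, beside 10.5% over all well-covered genes. Of these 4, 3 were HOXC10, HOXC11 and HOXC13 at the end of the C cluster, with log2 differences of 3.16 ± 0.27, 3.30 ± 0.55 and 1.36 ± 0.23 (SE). HOXC4, at the other end of that cluster, was the 1 member called down (3.23%, beside 2.92%), with -1.57 ± 0.16. The 3 HOX genes listed at 0 in control cells were all called up, among them HOXD10 on about 1.97, 3.94 and 1.97 fragments at 5 µM and HOXD11 on about 2.38, 8.33 and 1.19. A family of 66 well-covered developmental factors held forkhead genes besides homeobox and T-box genes. In it 15 (22.7%) were called up and 3 (4.55%) down (5 without control replicate 3), the falls being the forkhead genes FOXL1 and FOXQ1 and PAX4. NKX2-2, a factor of endocrine cells, was at 0.817, 0.811 and 0.956 kFPKM in control samples and 9.85, 12.7 and 11.3 at 5 µM (3.70 ± 0.29 (SE), adjusted p = 0.000383), and PAX4, another endocrine factor, at 25.9, 16 and 38.2 kFPKM in control samples and 6.53, 5.75 and 5.44 at 5 µM (-2.09 ± 0.33 (SE), adjusted p = 0.00373).

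Metallothioneins, which bind zinc and copper, had 2 (66.7%) of 3 well-covered members called up. MT2A was at 271, 167 and 101 kFPKM in control samples and 853, 856 and 814 at 5 µM (log2 difference 2.34 ± 0.33 (SE), adjusted p = 0.00254), and MT1X had 2.45 ± 0.36 (SE). The metallothionein copies are alike in sequence and short, so their separate levels are uncertain. Solute carriers stayed near the background, with 27 of 225 well-covered members called up (12%, beside 10.5%) and 7 (3.11%) down, the iron exporter SLC40A1 falling with -1.72 ± 0.15 and the cationic amino acid transporter SLC7A2 with -1.58 ± 0.19. Potassium channels had 10 (37%) of 27 well-covered members called up, beside 35.4% in the lowest-level group, and 2 (7.41%) down. The count up was 3 without 5 µM replicate 1 or replicate 3 and 4 without 5 µM replicate 2. Clustered histone genes, whose transcripts mostly lack the tail that the kit selects, had 3 (10.7%) of 28 called up and 0 down.

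Outside these lists, single genes moved further than most pathway members. FLNC, a filamin of muscle that crosslinks actin, was at 2.5, 1.94 and 1.42 kFPKM in control samples and 593, 514 and 732 at 5 µM (log2 difference 8.31 ± 0.24 (SE), adjusted p = 7.35e-05). IL2RG, the shared receptor chain of several interleukins, was at 4.62, 1.53 and 2.16 kFPKM in control samples and 166, 157 and 208 at 5 µM (6.14 ± 0.40 (SE), adjusted p = 0.000263), CXCL17, a mucosal chemokine, at 3.58, 4.74 and 6.14 kFPKM in control samples and 261, 325 and 309.9 at 5 µM (5.98 ± 0.21 (SE), adjusted p = 9.14e-05), and GCG, the precursor of glucagon and GLP-1, at 1.42, 0.94 and 0.665 kFPKM in control samples and 34.2, 62.4 and 47.1 at 5 µM (5.60 ± 0.37 (SE), adjusted p = 0.000272). Control levels of these 4 genes were at most 6.14 kFPKM. Among the falls, GPR39, a receptor for zinc, was at 121, 124 and 112 kFPKM in control samples and 24.4, 23.6 and 20.2 at 5 µM (-2.39 ± 0.11 (SE), adjusted p = 0.000112), and TM4SF4, a tetraspanin-like membrane protein, at 8781, 8539 and 8241 kFPKM in control samples and 2129, 2696 and 2137 at 5 µM (-1.88 ± 0.12 (SE), adjusted p = 0.000267). The deepest falls were smaller than the largest rises. The kit does not mark strand, so reads from an antisense partner cannot be told apart from those of these genes.

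The CpG content of the promoters was set beside the calls, since 5-Aza acts on methylated CpG sites. The measure was the observed number of CpG divided by the number that the base composition would give, in the 300 bases before the start, and 18390 of the genes tested (91.7%) had a window. The median was 0.812 over well-covered genes, 0.682 for those called up, 0.749 for those called down and 0.824 for those not called. The percentage called up was 26 below a ratio of 0.2, 25.2 from 0.2 to 0.4, 16.6 from 0.4 to 0.6, 9.26 from 0.6 to 0.8 and 6.72 above 0.8. The lowest-level group also had a lower median ratio, 0.69, and within it the percentages were 36.7, 38.7, 37.3, 34.4 and 33.8, in the same order. Among genes listed at 0 in control cells the percentages were higher at higher ratios, with 27.3% called up below 0.2, 33.6 from 0.2 to 0.4, 45.2, 49.7 and 44.5 in the following bins, and a median ratio of 0.519 for called genes and 0.319 for the rest. The state of methylation was not measured, and the ratios describe sequence alone.

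**Figure D5:**
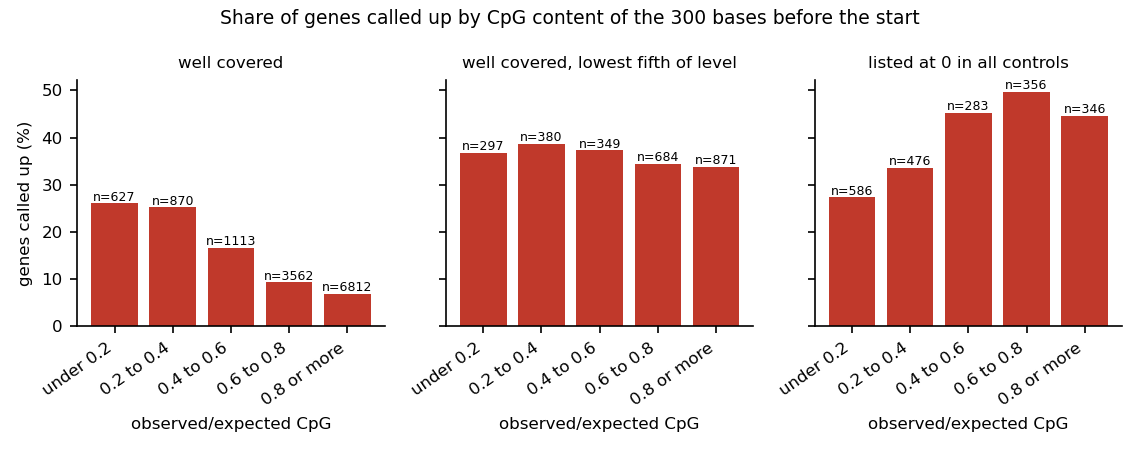
Percentage of genes called up (vertical axis) by observed over expected CpG in the 300 bases before the start (horizontal axis), for well-covered genes (left), their lowest-level group (middle) and genes listed at 0 in all control samples (right), with the number of genes above each bar. The percentage falls with CpG content from 26 to 6.72 in well-covered genes, stays between 33.8 and 38.7 in the lowest-level group, and is higher at intermediate and high content among genes listed at 0.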

How the data were processed

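RNA-Seq of 3 vehicle control and 3 5-Aza 5 µM cultures of HT-29 cells was analysed, and samples were grouped by their labels. The RNA was prepared with a TruSeq kit that does not mark strand and sequenced as paired reads. Reads were cleaned by the authors (FASTX-Toolkit), placed on hg19 (TopHat) and turned into FPKM values for each gene (Cufflinks), and these deposited FPKM values are the only values used. The Cufflinks options, the annotation and the handling of reads with several alignments are not given in the sources used here.

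Repeated symbols (543 of 23284) were summed. Genes whose largest value reached 10 FPKM were tested on log2(FPKM + 1) with limma 3.58.1 in R 4.3.3 (eBayes with an intensity trend, no block), with Benjamini-Hochberg adjustment over all 20051 genes. A count test was planned only for raw counts. Fold changes are relative within the library. The pseudocount of 1 FPKM is far below the value of 1 fragment, so differences can be overstated where control samples are at or near 0. Fragments were estimated from the steps of low values at microRNA genes of 110 nucleotides, where 39 of 39 values above 0 were whole multiples within 0.01, and from annotated gene length for 19919 symbols. These are estimates, and depth limits the precision for genes on few fragments. Replicate numbers did not pair the samples. Promoter windows and motifs were read from GRCh37 (hg19) at the start of 1 annotated transcript per gene with Python 3.11.15, pandas 2.3.3 and numpy 2.4.6. The scripts were tested on simulated data.

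The gene lists and the members were chosen with earlier results of these data known. Named were, per list or family, up to 4 called well-covered members with the largest difference in each direction, up to 3 called members listed at 0 in all control samples with the most fragments, and the first 2 members, and over all genes the 15 largest rises, falls and newly listed genes. Outside that rule, and chosen after their values were seen, are PIWIL4, B2M, ORC6, E2F1, FLNC, IL2RG, CXCL17, GCG, MS4A1 and DCN. Alternatives were other pseudocounts, filters, fold thresholds, scalings, coverage limits, the replicate block, all 9 samples in 1 fit, and each library left out. Set tests were not run. Some results are not reported here.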

Additional observations from a re-analysis of the deposited data

How the results depend on the processing

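The balance of more rises than falls held under every alternative tried except without a fold threshold, where well-covered genes called down outnumbered those called up (3412 against 2740). With no fold change threshold, 4263 genes were called up and 3553 down. The treat test of limma, which asks whether a change exceeds 2-fold, gave 1463 up and 70 down, and 518 and 62 among well-covered genes. Scaling by library sums gave 167 down, of which 138 were well covered. A pseudocount of 1000 left 383 calls among genes listed at 0 in all control samples. A limit of 100 estimated fragments left 781 well-covered genes called up. These settings call fewer or more genes by their construction, and for scaling the cause was not tested.

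Leaving out 1 library gave 2388 to 3027 genes called up and 406 to 507 down, and 1133 to 1436 up and 353 to 445 down among well-covered genes. With the replicate block the counts were 2553 up and 414 down, and 1288 and 375 among well-covered genes. Same-numbered samples did not deviate together, with correlations from -0.01 to 0.03 over 3 pairs. Under the pseudocount of 1000, LIN28B, ZFP42, RASSF2, PEG3, RTL1, HOXD10 and HOXD11, which rest on few fragments, were not called. Depth limits what can be said of genes with under 3 fragments, and a listed 0 is not shown to be absence.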
